A study of Mus musculus with 17 samples.

Results

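The silent beta-globin locus of mouse embryonic stem (ES) cells was viewed from both of its Tri-C viewpoints, HS2 and beta CTCF. All 7 ES libraries of the 17 libraries in the series were used, and no erythroid library. Their technical replicates were summed into 3 biological replicates, of 3, 2 and 2 libraries. Every replicate was read once from HS2 and once from beta CTCF, so the viewpoints were paired by replicate on the same DNA. The cells are the E14 line of strain 129/Ola, untreated, and the labels do not say whether the biological replicates were separate cultures, so the p-values may measure only technical spread. Contact counts hold no expression, so the cell type was not checked against marker genes.

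In Tri-C, cross-linked chromatin is cut with the enzyme NlaIII, religated, and enriched with oligonucleotides for one viewpoint fragment. Each entry of the deposited tables is a pair of further fragments that were joined to the viewpoint on one allele, with its read count in each library. One pair is therefore a three-way contact of the viewpoint and 2 other fragments. The comparison asks where each viewpoint's contacts lie, and which fragments meet it together, when the locus is inactive.

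The beta-globin genes stand in a row, with the adult genes at one end and the embryonic genes, among them Hbb-y, at the other. Beyond the embryonic genes lies the locus control region, a cluster of enhancers of which HS2 is one of the strongest in erythroid cells. CTCF is a DNA-binding protein that halts loop extrusion by cohesin and marks many domain boundaries, and the beta CTCF site lies beyond the adult genes. Olfactory receptor genes, which are expressed in sensory neurons of the nose, flank the locus on both sides.

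Coordinates are those of mouse build mm9. The window ran from 110850001 to 111150000 on chromosome 7 and held 150 bins of 2 kb. HS2 is centred at 111009846 and beta CTCF at 110955489, which is 54.4 kb away; distances are positive towards higher coordinates. The 10 bins within 5 kb of a viewpoint were left out. The rest was divided into 5 regions. They are the downstream flank up to 110950000, the adult-gene stretch from 110960001 to 110982000, the embryonic-gene stretch from 110982001 to 111004000, the rest of the control region from 111014001 to 111026000, and the upstream flank from 111026001 on. The gene stretches meet midway between the left-out bins. No mm9 annotation was used, so their names follow the known order of the genes.

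Promoters of 3 genes could be placed in the window by the spacing of their NlaIII sites, which mark the fragment ends in the tables. They are shown because they tie named genes to the bins that follow. The first 250 bases of each RefSeq promoter entry of GRCm38.p6 are printed on the gene's strand, which is the minus strand for all 3, and capitals mark the NlaIII site CATG. This motif reads the same on both strands. Of the 32851 promoters in the RefSeq table, 61.1% hold it within 300 bases and 53.9% within the first 250.
Olfr68: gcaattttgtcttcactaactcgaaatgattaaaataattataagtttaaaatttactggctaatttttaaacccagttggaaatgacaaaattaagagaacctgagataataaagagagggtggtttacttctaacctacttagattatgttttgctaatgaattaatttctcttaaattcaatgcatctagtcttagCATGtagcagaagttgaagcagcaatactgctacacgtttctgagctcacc
Hbb-y: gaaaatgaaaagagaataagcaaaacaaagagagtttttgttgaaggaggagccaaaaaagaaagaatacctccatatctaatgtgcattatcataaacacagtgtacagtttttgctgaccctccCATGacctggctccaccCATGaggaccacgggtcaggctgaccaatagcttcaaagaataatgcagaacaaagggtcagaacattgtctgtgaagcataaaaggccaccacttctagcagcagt
Olfr66: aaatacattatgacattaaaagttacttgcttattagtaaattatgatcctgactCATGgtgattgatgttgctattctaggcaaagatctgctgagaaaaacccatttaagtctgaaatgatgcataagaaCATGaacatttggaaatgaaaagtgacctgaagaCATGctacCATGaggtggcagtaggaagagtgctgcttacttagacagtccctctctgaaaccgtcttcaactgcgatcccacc

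Olfr68 and Olfr66 each matched a single place in the window. Matching used all 300 bases of an entry, so the printed bases hold 1 of the 3 Olfr68 sites and 4 of the 5 Olfr66 sites. Sites of the Olfr68 entry, with spacings of 27 and 50 bases, matched fragment ends from 110926830 to 110926906 in the downstream flank. Sites of the Olfr66 entry, with spacings of 75, 8, 34 and 77 bases, matched fragment ends from 111030755 to 111030948 in the upstream flank. The pair of Hbb-y sites, 17 bases apart, matched 3 places, of which 1 lay between Olfr68 and HS2, at 111001827 to 111001843 in the embryonic-gene stretch. The Hbb-y place therefore rests on gene order as well as on spacing.

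The HS2 tables held 272616, 84849 and 129113 counts in replicates 1, 2 and 3, against 785662, 93686 and 125570 from beta CTCF. Pairs with both fragments in the window numbered 40910, 14193 and 9674 from HS2, against 87394, 13625 and 8938 from beta CTCF. These came from 4432, 1502 and 1294 distinct fragment pairs from HS2, and from 7464, 1617 and 1335 from beta CTCF. Replicate 1 was thus the deepest from both viewpoints. A fragment pair was counted on average between 5.80 and 10.2 times within a library. Whether repeated counts are duplicates or separate molecules is not stated, so they are not shown to be independent molecules. Libraries of one replicate shared between 18.2% and 34.0% of the fragment pairs of the smaller library from HS2, no more than the 25.1% to 35.9% shared between replicates. From beta CTCF the ranges were 20% to 31.0% within and 23.7% to 42.4% between replicates. A percentage of the smaller library also depends on the depth of the larger one. The highest values between replicates paired a library of replicate 1 with a shallower one, so the ranges do not measure likeness alone. Levels below are contacts per 1000 pairs with both fragments in the window.

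Within the locus, each viewpoint met the genes beside it more often than the other viewpoint did. From HS2, 24.4%, 20.6% and 25.8% of contacts in the 5 regions lay in the embryonic-gene stretch, against 9.89%, 11.7% and 13.2% from beta CTCF. The rest of the control region took 17.0%, 17.0% and 11.9% from HS2, against 4.86%, 5.87% and 3.34% from beta CTCF. Every replicate was higher from HS2 than any from beta CTCF in both regions.

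The regions nearer to beta CTCF showed the opposite order. The adult-gene stretch received 9.42%, 5.60% and 7.85% of contacts from HS2, against 20.6%, 18.7% and 15.3% from beta CTCF. In the downstream flank the shares were 18.3%, 11.9% and 15.7% from HS2, against 38.2%, 28.1% and 30.6% from beta CTCF. The viewpoints did not overlap in either region.

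The upstream flank differed from the other regions. It begins 12 kb beyond the left-out bins at HS2 and took 30.9%, 44.8% and 38.7% from HS2, against 26.5%, 35.5% and 37.5% from beta CTCF, and the ranges overlapped. The paired difference was 4.95 ± 4.12 percentage points (SD, n = 3), positive in 3 of 3 replicates. In the other 4 regions it was -17.0 ± 2.62 in the downstream flank, -10.6 ± 2.88 in the adult-gene stretch, 12.0 ± 2.87 in the embryonic-gene stretch and 10.6 ± 1.86 in the rest of the control region. An exact sign-flip permutation test of 3 pairs, two-sided, cannot give a p below 0.25, and it gave 0.25 for all 5 regions.

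**Figure D1:**
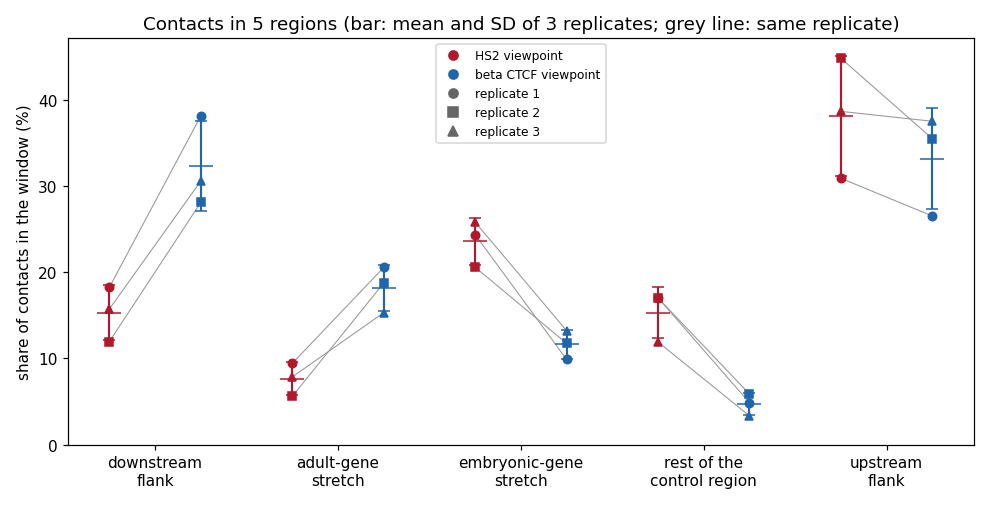
Share of contacts (%, y axis) in the 5 regions from left to right along the chromosome, from HS2 (red, left of each pair) and beta CTCF (blue), with 1 symbol per replicate, grey lines joining the same replicate, and bars for the mean and SD of 3 replicates. The viewpoints are separate in the first 4 regions and overlap in the upstream flank.

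In single bins of 2 kb, 135 passed a minimum of 50 counts over the 6 columns. Of these, 7 were higher from HS2, which is 5.19%, and 17 were higher from beta CTCF, which is 12.6% (edgeR quasi-likelihood test, replicate as block, Benjamini-Hochberg adjusted p under 0.05). The median log2 difference of all 135 bins, HS2 minus beta CTCF, was -0.42. Other scalings moved this median and the split of calls, to -0.06 with 15 higher from HS2 and 12 from beta CTCF under TMM factors, to -0.16 with 18 and 18 by DESeq2, and to -0.18 with 10 and 11 when scaled to the table totals. The split was 5 and 9 without the replicate block, and 5 and 10, 4 and 7, and 4 and 8 without replicate 1, 2 and 3. Replicates of the viewpoints did not overlap in 37 bins, or 27.4%. Across the 135 bins the log2 difference had a Pearson correlation of 0.79 with the log2 ratio of the bin's distances to beta CTCF and to HS2, as a description, since neighbouring bins share fragments' partners and libraries.

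Among the regions, the embryonic-gene stretch had 3 of 11 bins higher from HS2 and 0 of 11 higher from beta CTCF. The rest of the control region had 3 of 6 bins higher from HS2 and 0 of 6 the other way. The adult-gene stretch had 4 of 11 bins, and the downstream flank 13 of 50 bins, higher from beta CTCF, with none higher from HS2 in either. The upstream flank had 1 of 57 bins higher from HS2 and 0 of 57 higher from beta CTCF, with 29 of 57 differences positive and a median of 0.14.

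**Figure D2:**
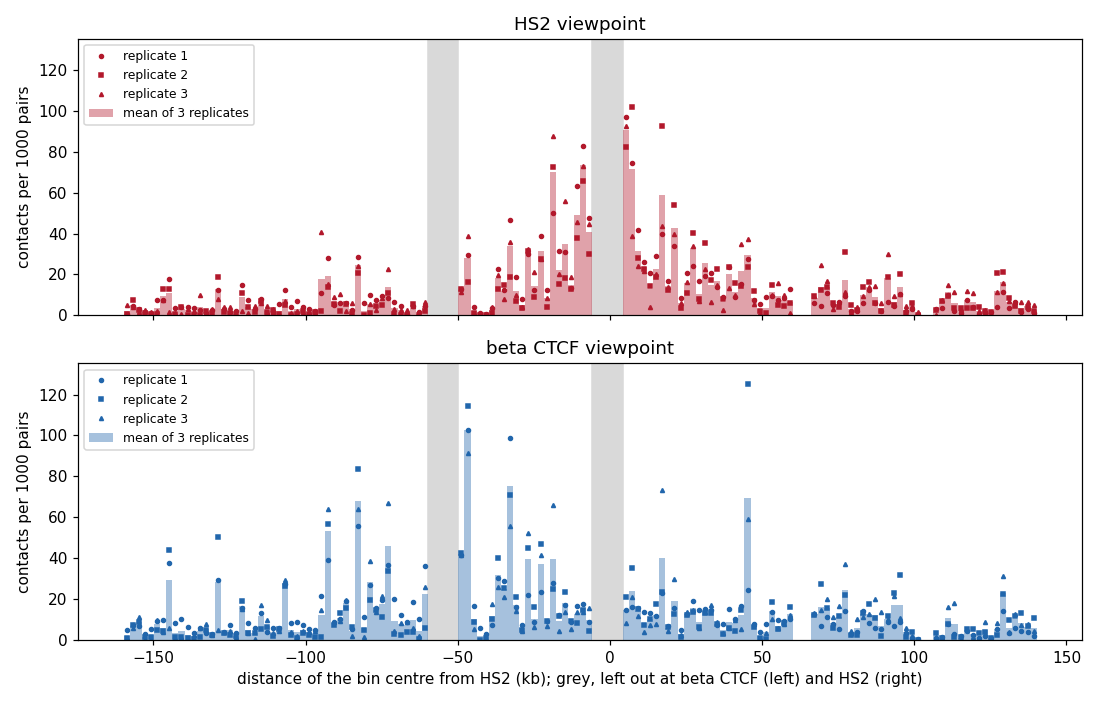
Contacts per 1000 pairs (y axis) in each tested 2 kb bin against the distance of its centre from HS2 (kb, x axis), from HS2 (red, above) and beta CTCF (blue, below), with bars for the mean of 3 replicates and symbols for the replicates. The highest mean lies beside each viewpoint on 1 side, at 5.2 kb from HS2 and at 7.5 kb from beta CTCF towards the genes. On the other side of beta CTCF the nearest tested bin averaged 22.6 from it, below the 67.8 at -28.5 kb. Single bins stand out on both flanks.

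The largest difference towards HS2 lay beside it, in the bin from 111014001 to 111016000 at 5.2 kb. Its level was 96.8, 82.2 and 92.5 from HS2, against 14.8, 20.9 and 8.28 from beta CTCF, a log2 difference of 2.71 ± 0.49 (SE, adjusted p = 0.00182, edgeR). All replicates from HS2 stood far above those from beta CTCF.

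The bin of the Hbb-y promoter, 111000001 to 111002000, lay at -8.8 kb from HS2, on the gene side. Hbb-y encodes the embryonic epsilon-type globin chain and is silent in ES cells. Its level was 82.6, 65.7 and 72.9 from HS2, against 17.7, 14.6 and 13.9 from beta CTCF. The log2 difference was 2.26 ± 0.45 (adjusted p = 0.00264, edgeR), and it kept its call in all 13 alternatives that gave a value, between 1.65 and 2.62.

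Both neighbours of that bin were called as well. The bin from 111002001 to 111004000 had 47.7, 29.8 and 44.4 from HS2, against 8.80, 4.55 and 15.8 from beta CTCF, a log2 difference of 2.21 ± 0.47. The bin from 110998001 to 111000000 had 63.4, 37.6 and 45.8 from HS2, against 16.7, 8.29 and 13.6 from beta CTCF, a log2 difference of 1.95 ± 0.45. These 3 bins are the tested bins nearest to HS2 on the gene side, so nearness to HS2 enters their differences. At equal distance from each viewpoint towards the other, the log2 difference was -0.23 at 5 to 7 kb and 0.52 at 7 to 9 kb (adjusted p = 0.601 and 0.249, edgeR). Neither was called. At 9 to 11 kb it was 3.28 (adjusted p = 0.00964, edgeR), over 9 listed fragments from HS2 and 4 from beta CTCF.

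The seventh bin higher from HS2 lay far out in the upstream flank, from 111118001 to 111120000, at 109.2 kb from HS2 and 163.5 kb from beta CTCF. Its level was low, at 3.52, 6.83 and 7.55 from HS2, against 1.34, 0.807 and 1.12 from beta CTCF. The log2 difference was 2.37 ± 0.75 (adjusted p = 0.0277, edgeR). The call ended in 6 of 14 alternatives, with adjusted p up to 0.604, among them the fit without the replicate block, each of the 3 that left out a replicate and the one with only pairs whose fragments lie at least 10 kb apart.

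On the other flank, the bin of the Olfr68 promoter, 110926001 to 110928000, was among the highest from beta CTCF. It holds 14 listed fragments, and levels are not adjusted for the number of fragments in a bin. Olfr68 is an olfactory receptor gene that lies beyond the adult globin genes. Its level was 28.4, 20.6 and 24.2 from HS2, against 55.9, 83.4 and 64.1 from beta CTCF, with its centre at -82.8 kb from HS2 and -28.5 kb from beta CTCF. The log2 difference was -1.46 ± 0.45 (adjusted p = 0.0258, edgeR), and the call ended in 6 of 14 alternatives, with adjusted p up to 0.190, among them those without replicate 2, without replicate 3, with only pairs at least 10 kb apart, under TMM factors and scaled to the table totals.

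The largest differences towards beta CTCF without overlap lay in bins with few counts from HS2. The bin from 110942001 to 110944000, with 3 listed fragments, had 0.733, 0.211 and 2.58 from HS2, against 8.87, 3.74 and 8.73 from beta CTCF, a log2 difference of -3.07 ± 0.76. The bin from 110930001 to 110932000 had 9.70, 1.20 and 5.58 from HS2, against 26.7, 19.5 and 38.7 from beta CTCF, a log2 difference of -2.70 ± 0.54. In both, the lowest replicate from HS2 was replicate 2. The call of the first ended without replicate 1 and without the replicate block, and it held with only pairs of fragments at least 10 kb apart. With only such pairs the second call ended, at a log2 difference of -1.07 (adjusted p = 0.340, edgeR).

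Between the viewpoints, the bin from 110964001 to 110966000 in the adult-gene stretch had 3.96, 0.986 and 1.03 from HS2, against 16.6, 8.73 and 5.15 from beta CTCF. Its log2 difference was -2.49 ± 0.60 (adjusted p = 0.00731, edgeR). The bin from 110970001 to 110972000 had 3.35, 1.13 and 3.82 from HS2, against 7.23, 10.3 and 17.5 from beta CTCF, a log2 difference of -2.12 ± 0.59. Both calls ended without the replicate block and with only pairs of fragments at least 10 kb apart, where the log2 difference was -1.28 in the first (adjusted p = 0.659, edgeR) and -2.08 in the other (adjusted p = 0.284, edgeR). The first also ended without replicate 1, and the other without replicate 2 and without replicate 3.

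At least 20 kb from both viewpoints, 4 further bins were named, all in the downstream flank. The bin from 110922001 to 110924000 had 5.87, 5.57 and 2.27 from HS2, against 18.8, 15.8 and 19.5 from beta CTCF. Next to it in rank, the bin from 110902001 to 110904000 had 12.5, 4.93 and 6.93 from HS2, against 27.4, 26.2 and 29.3 from beta CTCF. The remaining bins, from 110932001 to 110934000 and from 110854001 to 110856000, had log2 differences of -1.72 ± 0.50 and -1.78 ± 0.61. In all 4 bins the replicates from HS2 lay below every replicate from beta CTCF. The call of the first bin ended without replicate 3 and that of the next without replicate 2. With only pairs of fragments at least 10 kb apart all 4 calls ended, with log2 differences of -1.11 in the first bin and -0.77 in the next (adjusted p = 0.385 and 0.604, edgeR). The calls of the remaining pair also ended without any 1 of the replicates, without the replicate block, under TMM factors and when scaled to the table totals.

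The Olfr66 bin, 111030001 to 111032000, holds an olfactory receptor promoter on the control-region side. Its level was 34.0, 54.0 and 39.8 from HS2, against 15.4, 12.6 and 29.8 from beta CTCF. The replicates did not overlap, but the log2 difference of 1.22 ± 0.47 missed the threshold (adjusted p = 0.0674, edgeR); it passed under TMM factors, with DESeq2 and when partner fragments outside the window were included.

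**Figure D3:**
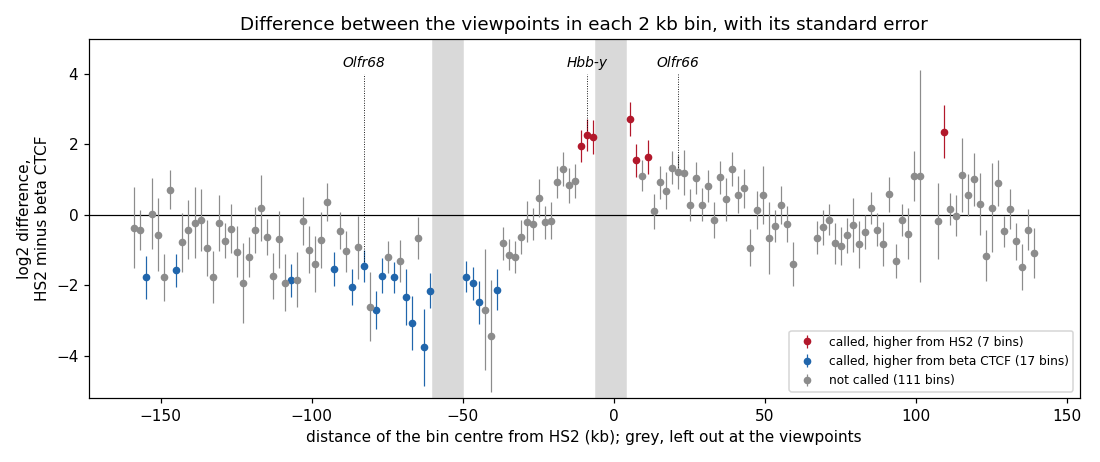
The log2 difference, HS2 minus beta CTCF (y axis), with its standard error in each of the 135 tested bins against the distance from HS2 (kb, x axis), coloured by call (7 higher from HS2, 17 higher from beta CTCF, 111 not called), with the bins of the 3 placed promoters marked. Differences are positive around HS2, negative around beta CTCF, mostly negative on the downstream flank, and scatter around 0 on the upstream flank.

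The counts of calls depended on the pairs that were counted. Pairs of short span dominated: 70.0%, 85.1% and 73.2% of pairs from HS2, against 59.2%, 77.4% and 67.8% from beta CTCF, joined fragments under 10 kb apart. Directly neighbouring fragments made up 42.2%, 54.8% and 45.7% from HS2, against 34.4%, 46.5% and 41.8% from beta CTCF. With only pairs of fragments at least 10 kb apart, 6 bins were higher from HS2 and 1 from beta CTCF, of 135, and 6 of these 7 calls were among the 24 with all pairs. The regions kept their order with such pairs, with differences of -14.3 percentage points in the downstream flank, -12.2 in the adult-gene stretch, 10.9 in the embryonic-gene stretch and 5.89 in the rest of the control region.

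A fixed bin lies at different distances from the viewpoints, so contacts were also set side by side at equal distance and equal side. Inward means towards the other viewpoint and outward away from it. Of 67 such bins, 14 were higher from HS2, or 20.9%, and 12 from beta CTCF, or 17.9% (edgeR, as above). Inward, 6 of 22 bins were higher from HS2 and 4 of 22 from beta CTCF, and outward 8 of 45 and 8 of 45. TMM factors gave 8 higher from HS2 and 15 from beta CTCF. Without replicate 1, 0 of 67 were called, with 29 at an unadjusted p under 0.05. With only pairs of fragments at least 10 kb apart, 4 were higher from HS2 and 1 from beta CTCF.

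Bins at equal distance are different DNA, and they hold different numbers of listed fragments. A fragment is listed only if it has a count in an ES library from either viewpoint. Fragment numbers are therefore not independent of the contacts, and a stretch with few contacts can list few fragments for that reason alone. In 23 of the 26 called bins the higher viewpoint was the one with more fragments there. Across the 66 bins with fragments on both sides, the log2 difference had a Pearson correlation of 0.85 with the log2 ratio of fragment numbers, HS2 over beta CTCF, as a description. The part of fragment number in these calls was not tested further.

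Outward at 65 to 67 kb, for example, HS2 looks at a stretch with 0 listed fragments and had 0 counts in all replicates, against 14.5, 16.9 and 12.9 contacts per 1000 pairs in 10 fragments from beta CTCF. At 61 to 63 kb the numbers were 1 fragment with 0 counts from HS2, against 7.56, 4.70 and 1.45 in 9 fragments from beta CTCF. At 63 to 65 kb, 2 fragments had 0.171, 0 and 0 from HS2, against 9.10, 3.30 and 3.36 in 12 fragments from beta CTCF. These 3 bins carried the most negative log2 differences of the comparison, and no fold is read from them.

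The bins highest from HS2 at equal distance were likewise richer in fragments. Inward at 11 to 13 kb the mean was 34.4 ± 2.21 from HS2 over 7 fragments, against 1.05 ± 1.81 from beta CTCF over 3 fragments (SD, n = 3 each). Outward at 25 to 27 kb it was 32.5 ± 6.93 over 15 fragments from HS2, against 2.11 ± 1.34 over 4 fragments from beta CTCF. At 15 to 17 kb outward, 13 fragments gave 57.3 ± 23.0 from HS2, against 5.07 ± 5.22 in 6 fragments from beta CTCF. Outward at 7 to 9 kb the values were 53.4 ± 21.3 over 9 fragments from HS2 and 5.19 ± 4.72 over 4 from beta CTCF, and at 43 to 45 kb 18.7 ± 2.86 over 12 and 1.77 ± 0.932 over 2. Inward at 41 to 43 kb, close to the other viewpoint, the order turned, with 0.196 ± 0.339 over 2 fragments from HS2 and 8.33 ± 4.29 over 6 from beta CTCF. At 43 to 45 kb inward it was 0.652 ± 1.13 over 4 fragments from HS2 and 8.84 ± 4.71 over 10 from beta CTCF.

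Long stretches even out the fragment numbers. The far side of each viewpoint was taken from 60 to 159 kb, towards and past the other viewpoint, and the near side from 6 to 105 kb away from it. The far side of HS2 and the near side of beta CTCF are nearly the same DNA, the downstream flank, with 419 and 418 listed fragments. The far side of beta CTCF and the near side of HS2 are nearly the same upstream DNA, with 452 and 450 listed fragments.

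On the far side, HS2 had 308, 187 and 263 contacts per 1000 pairs, against 470, 622 and 604 for beta CTCF, at the same distances from each. The mean was 253 ± 61.4 for HS2 and 566 ± 82.9 for beta CTCF (SD, n = 3 each), lower for HS2 in 3 of 3 replicates and without overlap. The exact sign-flip permutation test, two-sided, gave its smallest p of 0.25. On the near side, HS2 had 650, 787 and 636, against 648, 506 and 543 for beta CTCF. The ranges overlapped, and the near side was higher for HS2 in 3 of 3 paired replicates, by 125 ± 142 contacts per 1000 pairs (SD, n = 3). It was higher in 2 of 3 when each fragment pair was counted once per library.

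For HS2 the far side thus held 0.375 ± 0.123 times the contacts of the near side, against 1.02 ± 0.264 times for beta CTCF. Seen on the same DNA, contacts of the upstream stretch were 1.23 ± 0.166 times as frequent from HS2 as from beta CTCF, and it lies 6 to 105 kb from HS2 and 60 to 159 kb from beta CTCF. In the downstream stretch the ratio was 0.443 ± 0.0642. The far-side difference was also without overlap when each fragment pair was counted once per library, at 388, 270 and 305 for HS2, against 529, 643 and 591 for beta CTCF. With only pairs at least 10 kb apart it was smaller, at 389, 313 and 312 for HS2, against 418, 458 and 593 for beta CTCF.

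**Figure D4:**
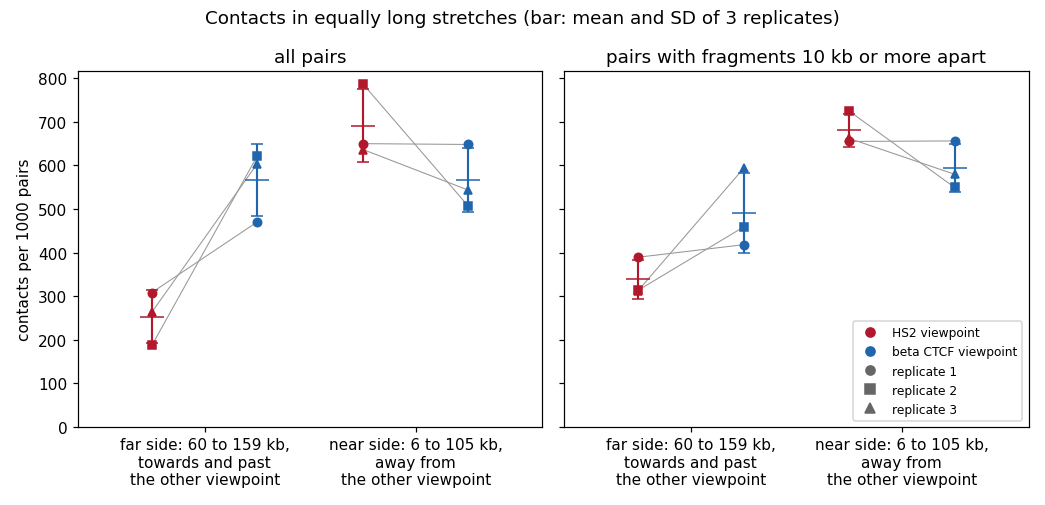
Contacts per 1000 pairs (y axis) on the far side and the near side of each viewpoint, with all pairs (left) and with pairs of fragments at least 10 kb apart (right), HS2 in red and beta CTCF in blue, 1 symbol per replicate and bars for the mean and SD of 3 replicates. HS2 lies below beta CTCF on the far side in every replicate in both panels, and the near sides overlap.

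One upstream bin weighed on the far side of beta CTCF. The bin from 111054001 to 111056000 had 27.6, 23.7 and 37.5 from HS2, against 24.2, 125 and 59.1 from beta CTCF, and was singled out after its values were seen. In replicate 2 from beta CTCF it held 1706 counts in 58 distinct fragment pairs. Without this bin the far side averaged 253 ± 61.4 for HS2 and 496 ± 49.5 for beta CTCF, and the ratio of far to near side was 0.393 ± 0.132 for HS2 and 0.892 ± 0.176 for beta CTCF.

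The pairs themselves show which fragments met a viewpoint together. Most pairs had both fragments in one region. Pairs within the downstream flank made up 14.5%, 10.99% and 13.1% from HS2, against 31.8%, 26.6% and 26.3% from beta CTCF. Pairs within the embryonic-gene stretch made up 19.6%, 18.5% and 20.9% from HS2, against 6.67%, 10.6% and 11.1% from beta CTCF.

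Pairs that bridge regions were rarer. A fragment of the downstream flank together with one of the adult-gene stretch was seen in 0.951%, 0.0464% and 0.192% of pairs from HS2, against 3.71%, 1.37% and 1.51% from beta CTCF, without overlap. The embryonic-gene stretch with the upstream flank made up 3.38%, 2.37% and 3.31% from HS2, against 1.37%, 1.41% and 1.49% from beta CTCF, also without overlap. The downstream with the upstream flank, which spans the whole locus, made up 2.89%, 1.34% and 2.21% from HS2, against 6.11%, 1.41% and 5.42% from beta CTCF. The ranges overlapped, and the share was lower from HS2 in 3 of 3 paired replicates, with a difference of -2.17 ± 1.81 percentage points (SD, n = 3) and the smallest exact sign-flip p of 0.25.

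In pairs of 10 kb bins, 276 were tested, of which 3 were higher from HS2, or 1.09%, and 7 from beta CTCF, or 2.54%, together 3.62% (edgeR, as above). Of the 10 calls, 7 were among the 29 pairs within a single bin and 3 among the 247 pairs of different bins. The split was 4 and 2 under TMM factors, 3 and 2 when scaled to the table totals, 6 and 9 by DESeq2, and 2 and 1 without replicate 3. With only fragments at least 10 kb apart, 0 of 242 were called by edgeR, with 10 at an unadjusted p under 0.05. Fragments within a single 10 kb bin cannot lie that far apart, so the loss of the 7 calls within a single bin was fixed in advance. On simulated counts for all 276 bin pairs, the test recovered 4 of 28 changed by 3 on the log2 scale, or 14.3%.

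The 3 bin pairs higher from HS2 were all within 1 bin, and fragments in the left-out bins at HS2 were not counted in them. Pairs inside 111000001 to 111010000 had 43.3, 38.8 and 43.4 per 1000 from HS2, against 6.64, 7.56 and 9.17 from beta CTCF, a log2 difference of 2.44 ± 0.41. Inside 111010001 to 111020000 they had 75.0, 93.5 and 56.0 from HS2, against 12.9, 27.0 and 12.9 from beta CTCF. The last of them, inside 110990001 to 111000000, had 65.9, 66.4 and 81.9 from HS2, against 22.3, 29.0 and 37.8 from beta CTCF, and its call ended without replicate 1 and without replicate 3.

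From beta CTCF, pairs inside 110960001 to 110970000 were higher, at 8.97, 6.13 and 10.4 from HS2, against 34.5, 44.6 and 32.7 from beta CTCF, a log2 difference of -2.15 ± 0.41. Inside 110930001 to 110940000 they had 12.5, 8.88 and 17.5 from HS2, against 33.4, 35.7 and 48.3 from beta CTCF. Inside 110900001 to 110910000 the log2 difference was -1.77 ± 0.50, and between 110910001 to 110920000 and 110920001 to 110930000 it was -1.58 ± 0.42. Without replicate 3, these last 3 calls ended. The calls inside 110900001 to 110910000 and between the neighbouring bins also ended without replicate 2, and that inside 110930001 to 110940000 without replicate 1. All 3 ended under TMM factors and when scaled to the table totals.

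One named pair joined distant bins, 110960001 to 110970000 in the adult-gene stretch and 111030001 to 111040000 in the upstream flank. It had 0 counts from HS2 in all 3 replicates, against 56, 17 and 86 counts in 16, 3 and 7 fragment pairs from beta CTCF. It was called lower from HS2 (adjusted p = 0.00090, edgeR). If each count were a separate molecule, a floor of 3 counts over the 3 replicates from HS2 would make it at least 31.2-fold lower. Repeated counts of a fragment pair are not shown to be separate molecules, so this bound is not firm. Without replicate 3, the replicate with most of these counts, the bound was at least 13.3-fold lower from HS2 and the call ended (adjusted p = 0.886, edgeR). The call also ended with only pairs of fragments at least 10 kb apart (adjusted p = 0.0668, edgeR). That filter removes none of this pair's own counts, since its bins lie further apart, so only the rest of the fit changed. The call held in the other 8 of 10 alternatives.

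Pairs that span a viewpoint, with one fragment on each side of it within 49 kb, made up 8.36%, 4.10% and 5.61% from HS2, against 7.51%, 2.45% and 5.34% from beta CTCF. The share was higher from HS2 in 3 of 3 paired replicates, by 0.922 ± 0.697 percentage points, and in 1 of 3 when each fragment pair was counted once per library. If the sides of both fragments were independent, the sides' own shares would give 49.2 ± 0.489% from HS2 and 47.8 ± 1.89% from beta CTCF. The observed share was 0.122 ± 0.0427 of that value from HS2 and 0.106 ± 0.0506 from beta CTCF. From neither viewpoint did fragments on opposite sides occur together as often as independent sides would give, and the viewpoints' shares overlapped.

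A spanning pair is at least 10 kb wide because 5 kb on each side was left out. Among pairs of fragments at least 10 kb apart, the spanning share was 41.8%, 33.3% and 31.9% from HS2, against 23.7%, 12.0% and 23.7% from beta CTCF. The viewpoints no longer overlapped, with a paired difference of 15.9 ± 6.86 percentage points, higher from HS2 in 3 of 3 replicates. The filter keeps every spanning pair and removes only same-side pairs, so a higher spanning share was fixed in advance. Its ratio to the value for independent sides was 0.722 ± 0.114 from HS2 and 0.462 ± 0.101 from beta CTCF. That value does not allow for the filter, so the ratios do not show how near to independence the sides were.

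This difference was smaller without pairs that join a pair of recurring stretches, taken here as the near-identical adult globin genes from their place in the locus and with no annotation. A run of 3 fragments of 122, 102 and 25 bases, from 110961853 to 110962101, recurs 14009 bases further on, from 110975862 to 110976110. Pairs joining the surroundings of both copies held 657, 194 and 173 counts from HS2, against 4167, 672 and 242 from beta CTCF. Of these, 654, 194 and 173 counts from HS2 came from 25, 17 and 12 fragment pairs. From beta CTCF, 4142, 671 and 242 of them came from 48, 27 and 19 fragment pairs. Reads of one copy that were placed at the other cannot be told apart from contacts between the copies here.

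With copy-joining pairs left out, spanning pairs among those at least 10 kb wide made up 49.9%, 42.5% and 40.4% from HS2, against 39.4%, 31.9% and 34.9% from beta CTCF. When each fragment pair was also counted once per library, the shares were 49.1%, 47.9% and 41.4% from HS2, against 45.0%, 39.5% and 47.0% from beta CTCF. The viewpoints then overlapped, with a paired difference of 2.29 ± 7.15 percentage points. The shares were 0.939 ± 0.0911 of the independent value from HS2 and 0.886 ± 0.0745 from beta CTCF, again with no allowance for the filter.

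**Figure D5:**
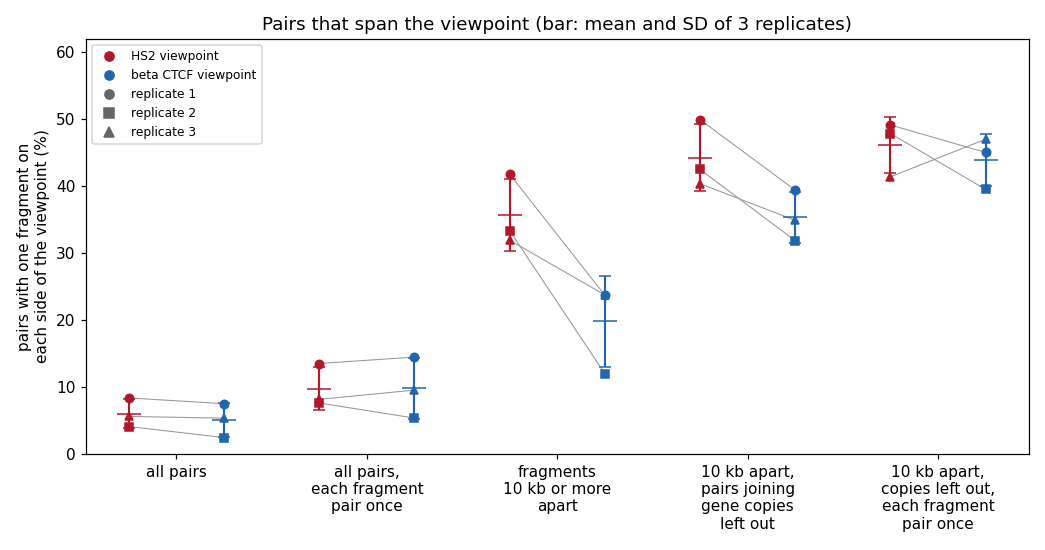
Share of pairs with one fragment on each side of the viewpoint (%, y axis) under 5 ways of counting pairs, from HS2 (red, left of each pair) and beta CTCF (blue), with 1 symbol per replicate and bars for the mean and SD of 3 replicates. The viewpoints are apart among fragments at least 10 kb apart and overlap again when copy-joining pairs are left out and each fragment pair is counted once.

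HS2 and beta CTCF also met each other, but whether they did so more often than neighbouring DNA was not tested. The other viewpoint, within 5 kb of its centre, was in 2.21%, 1.49% and 2.31% of pairs from HS2, against 3.54%, 3.16% and 2.24% from beta CTCF. These overlapped, with a paired difference of -0.978 ± 0.921 percentage points. Counted once per fragment pair and library the shares were 2.95%, 2.34% and 2.95% from HS2, against 4.18%, 4.72% and 3.45% from beta CTCF, without overlap. With fragments at least 10 kb apart the mean turned to 0.919 percentage points higher from HS2, so no direction is given.

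Alleles on which both viewpoints met were few. Their remaining fragment fell in the 5 regions in 528, 57 and 161 pairs from HS2, against 1653, 216 and 63 pairs from beta CTCF. In the embryonic-gene stretch it lay in 17.8%, 26.3% and 53.4% from HS2, against 25.8%, 8.33% and 25.4% from beta CTCF. In the adult-gene stretch it lay in 9.47%, 15.8% and 15.5% from HS2, against 13.6%, 22.7% and 0% from beta CTCF, where 0 of 63 allows up to 4.76% by counting error alone. Counted once per fragment pair and library, those 63 counts became 19, and 0 of 19 allows up to 15.8%. The replicates overlapped in 4 of the 5 regions. In the upstream flank they were 20.8%, 19.3% and 1.24% from HS2, against 22.3%, 24.1% and 41.3% from beta CTCF, next to each other in replicate 1. Counted once per fragment pair and library, the upstream flank held 25.5%, 21.4% and 3.33% from HS2, against 23.5%, 31.0% and 47.4% from beta CTCF. The viewpoints then overlapped there too, and replicate 1 turned to the other direction.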

How the data were processed

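Tri-C counts of 7 ES libraries were analysed at the beta-globin locus. The values the authors deposited are whole-number counts per pair of NlaIII fragments and library, in 1 table per viewpoint. Per the submitters' processing notes, Trim Galore, Bowtie and build mm9 were used. Versions, roles, duplicate removal and fragment calling are not given in the sources used here. Regions, lists and tests were chosen with earlier results of these data known.

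Technical replicates were summed. Each pair with both fragments in the window added 1 to the bin of each fragment. Counts were tested with edgeR 4.0.16 in R 4.3.3 (quasi-likelihood), with the replicate as block, the number of window pairs as library size, no normalization factors, a minimum of 50 counts and Benjamini-Hochberg adjustment. The SE is the log2 difference divided by the square root of F. The block follows from the design, since both tables hold the same libraries. Deviations from the viewpoint means correlated at 0.57, 0.40 and 0.21 within replicates 1, 2 and 3, over 135 bins. DESeq2 1.42.0 was an alternative. Shares were compared by exact sign-flip permutation over 3 pairs, whose smallest p is 0.25, so adjustment over shares changes nothing.

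The bins, equal-distance bins and bin pairs named are, per direction, up to 5 calls of largest log2 change whose replicates do not overlap, and up to 5 more bins at least 20 kb from both viewpoints. On simulated counts for the 135 bins, the test recovered 14 of 14 bins changed by 3 on the log2 scale. It recovered 7 of 13 changed by 1.5, with 1 call among unchanged bins. For equal-distance bins it recovered 7 of 7 changed by 3 and 0 of 6 changed by 1.5, and 0 of 27 bin pairs changed by 1.5. Counts were simulated independently for each bin and without replicate effects. They do not cover bins that share pairs, so the false calls in the data are not measured. Intervals and floors cover counting error only, and those set on counts take each count as a separate molecule. Promoter entries were placed with Python 3.11.15 by NlaIII site spacing, with no conversion of coordinates. Of 20 neighbouring promoters with at least 2 sites, 3 were placed. The other viewpoints and the erythroid libraries were not used.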

Additional observations from a re-analysis of the deposited data

How the results depend on the processing

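For the 3 tests over bins, the number of calls stayed within 1.5 times the reported one unless listed here. In the 2 kb bins, with 24 calls, it was 14 without the replicate block (5 higher from HS2, 9 from beta CTCF), 42 with fragment pairs counted once in a library, 14 with 10 kb left out around each viewpoint, 7 with only fragments at least 10 kb apart, and 11 to 15 without 1 replicate. TMM factors gave 15 higher from HS2 and 12 from beta CTCF, DESeq2 gave 18 and 18, and scaling to the table total gave 10 and 11, with medians of all bins at -0.06, -0.16 and -0.18. Of the reported calls, TMM shared 19 and DESeq2 23.

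At equal distance, with 26 calls, the number was 0 to 23 without 1 replicate, 3 with 4 kb bins and 5 with fragments at least 10 kb apart; TMM gave 8 higher from HS2 and 15 from beta CTCF. In the bin pairs, with 10 calls, it was 6 with TMM factors, 5 scaled to the table total, 33 of 54 counted once, 4 with 10 kb left out, 18 with 20 kb bins, 0 with fragments at least 10 kb apart, and 3 to 7 without 1 replicate. The filter to fragments at least 10 kb apart empties every pair within a single 10 kb bin, which made up 7 of the 10 calls. The fit without the replicate block gave 8 bin pairs and 27 equal-distance bins.

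Region differences kept their direction throughout, in percentage points HS2 minus beta CTCF. Counted once per library, the adult-gene stretch was at -5.11, the embryonic-gene stretch at 9.03 and the rest of the control region at 7.44. With 10 kb left out the adult-gene stretch was at -4.72, the rest of the control region at 2.53 and the upstream flank at 9.78. With fragments at least 10 kb apart the downstream flank was at -14.3, the rest of the control region at 5.89, the upstream flank at 9.64, both fragments inward at -22.1, and the far side at -152 contacts per 1000 pairs.

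The spanning share turned to -0.0317 when each fragment pair was counted once. Among fragments at least 10 kb apart it was 15.9, then 8.88 without copy-joining pairs, 5.56 counted once, and 2.29 with both. Both fragments outward turned to -4.58 without copy-joining pairs and to -1.04 when also counted once. Mutual contact turned to 0.919 with fragments at least 10 kb apart. For alleles on which both viewpoints met, the share of the remaining fragment lay between -5.49 and 5.72 in the adult-gene stretch and between -13.1 and 1.04 in the rest of the control region without 1 replicate. The cause of these shifts was not tested. For the named bins and bin pairs that were called, 329 of 412 values under alternatives kept the call and 83 lost it. The Olfr66 bin, which was not called, gained a call in 3 of 14. None of these values changed direction. Depth limits replicates 2 and 3 most.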
